A study of Xenopus laevis with 6 samples.

Results

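The genes described here are the T-box transcription factors on the array: eomes, vegt, brachyury (tbxt) and the numbered tbx genes. They were chosen by annotated gene name, as every probe set whose symbol, without the .L or .S ending, is eomes or vegt or begins with tbx. A probe set is a group of short array probes that read 1 transcript, and the endings tell apart the copies that the duplicated Xenopus laevis genome carries on its long (.L) and short (.S) chromosomes. The rule found 20 probe sets of 17 genes among 15491 tested probe sets. Of these, 19 carried 1 symbol and 1 was annotated to both tbx5.L and tbx5.S. The symbol tbxas1.L fits the rule by its spelling but names thromboxane A synthase, an enzyme and not a T-box factor, which leaves 19 probe sets of 16 T-box genes.

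RNA came from animal caps, explants of prospective ectoderm, at gastrula stage 10.5. The 6 arrays comprise 2 of uninjected caps, 2 of caps expressing Mixer, a homeodomain factor, and 2 of caps expressing Sox17beta (titled Sox17), an HMG-box factor. The labels give the sex as mixed and name no clutch or pool, no amount of injected RNA and no injected control, so a p-value here reflects the spread among these arrays alone, which may be technical. The design asks which genes respond when each endoderm regulator is supplied to tissue that otherwise forms epidermis, and for the T-box factors this asks whether the mesendoderm regulators among them change. Values are RMA expression values on the log2 scale, on which a difference of 1 is a doubling.

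T-box factors bind DNA through a conserved domain, the T-box. In the frog embryo, VegT RNA is stored in the vegetal part of the egg and its protein starts the formation of endoderm and the release of Nodal signals that induce mesoderm. Eomes (Eomesodermin) is switched on in the early mesendoderm by Nodal and activin signals, and Brachyury marks the mesoderm and is maintained there with FGF signals. Later members act in organs: Tbx6 in the paraxial mesoderm, Tbx4 and Tbx5 in limbs and heart, Tbx1 in the pharynx, Tbx20 in the heart, and Tbx2 and Tbx3 as repressors in several tissues.

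The array medians lay between 6.50 and 6.55. Each carries 44 controls for transcripts that should be absent, and the highest of these read 5.90 to 5.99 on the uninjected and Mixer arrays, 6.62 on Sox17beta replicate 1 and 6.09 on Sox17beta replicate 2. Sox17beta replicate 1 stood apart in these controls, with a median of 4.06 against 3.73 to 3.85 on the other arrays. It also had the lowest share of probe sets above the highest absent control, at 48.5% against 57.8% to 60.7%. Of the 20 members, 13 lay below the highest absent control of their own array on all 6 arrays, 6 lay above it on some arrays, and tbx2.L lay above it on all 6. The tissue was checked by its markers. Of 18 probe sets of epidermal markers, 16 and 17 lay above the highest absent control on the uninjected arrays. Of 4 muscle and mesoderm probe sets, which cover 3 of 6 listed genes, 0 did on any array. On the uninjected arrays 6 of 10 neural plate probe sets also lay above, and 2 and 3 of 13 endoderm probe sets. So did 8 and 6 of 30 probe sets of genes known downstream of Brachyury.

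eomes.L was the T-box gene with the largest response, and it responded to Sox17beta. It read 5.41 and 5.23 in uninjected caps, 5.55 and 5.32 in Mixer caps, and 7.93 and 8.21 in Sox17beta caps (replicates 1 and 2). Both Sox17beta arrays lay far above the other 4, which formed a narrow band. Only the Sox17beta values exceeded the highest absent control of their array. The group means were 5.32 ± 0.13 (SD, n = 2), 5.44 ± 0.16 and 8.07 ± 0.20. The measured difference between Sox17beta and uninjected caps was 2.75 ± 0.18 (SE). The uninjected values lay above the median of the absent controls (3.73 and 3.82) but below the highest of them (5.90 and 5.99). The size of the difference is therefore read only as the bound given further on. In the limma fit of all arrays the adjusted p was 0.055. Over all probe sets same-numbered arrays varied together, and once the number entered the fit as a block the adjusted p was 0.000852. The replicate differences of eomes.L itself were 0.18, 0.23 and -0.28 (uninjected, Mixer and Sox17beta caps). With the block its SE was 0.15. At these settings the rise thus passed with the block and not without it. Other settings without the block are given in the closing section. Against Mixer caps, eomes.L in Sox17beta caps was higher (Mixer minus Sox17beta -2.64), and this passed in both fits (limma adjusted p = 0.04, with the block 0.000649).

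**Figure D1:**
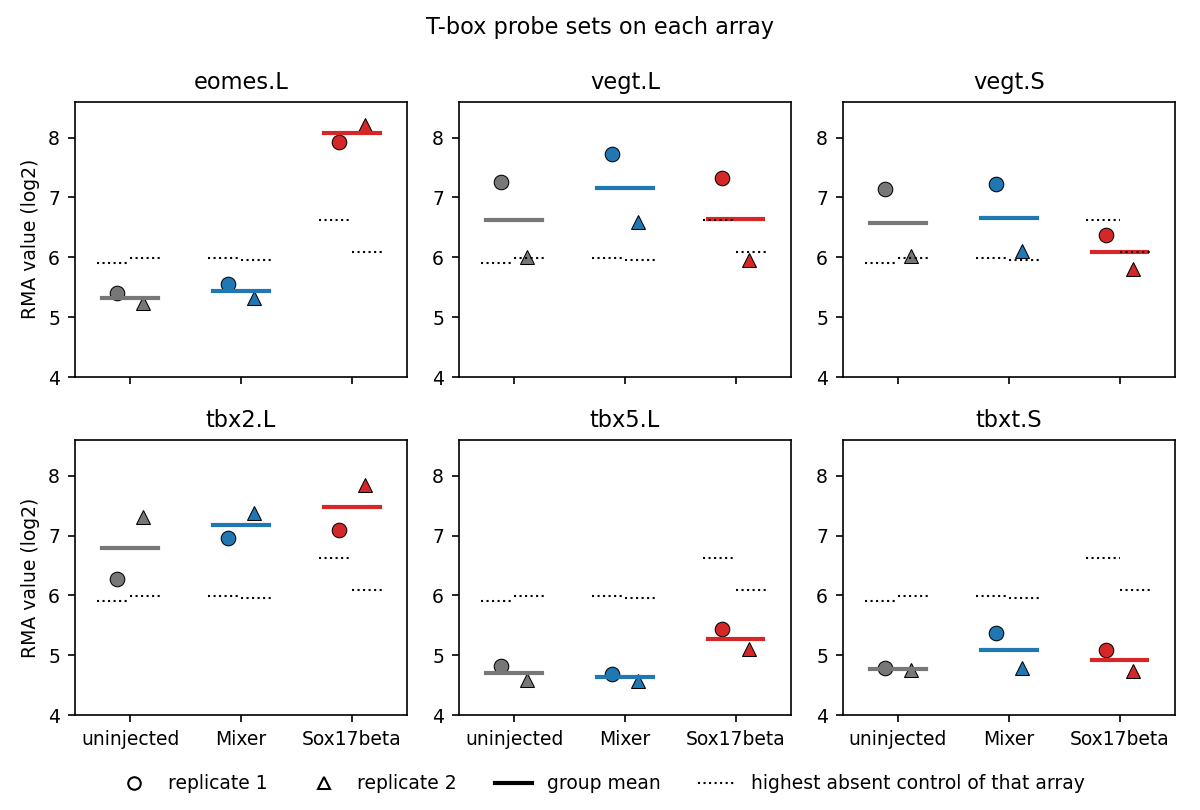
RMA values (log2, vertical axis) of 6 T-box probe sets on each array, by group (horizontal axis), with circles for replicate 1, triangles for replicate 2, solid lines for group means and dotted lines for the highest absent control of each array. eomes.L stands at 7.93 and 8.21 in Sox17beta caps and at 5.23 to 5.55 elsewhere, vegt.L and vegt.S separate by replicate number, and tbx5.L and tbxt.S stay below the dotted lines on every array.

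Because eomes.L did not exceed the highest absent control in uninjected or Mixer caps, its fold there is given as a bound. Taking the highest absent control of each array as the lower level, the Sox17beta mean was at least 2.13 above uninjected caps, or at least 4.36-fold higher, and at least 4.27-fold higher than in Mixer caps. None of the 44 absent controls (0) moved as far as eomes.L in Sox17beta caps, where their differences ran from -0.24 to 0.47. The difference of eomes.L was 2.52 between arrays numbered 1 and 2.98 between arrays numbered 2. With 1 array left out it stayed between 2.51 and 2.99. Most omissions ended the blocked call, but these fits leave 1 array in a group and lost calls over all probe sets too. The loss is therefore not particular to eomes.L. Between Mixer and Sox17beta caps the difference stayed between -2.88 and -2.39. There each omission ended the call of the fit without the block and most ended the blocked call, again with 1 array in a group.

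Mixer caps gave no such change of eomes.L. Their difference from uninjected caps was 0.12 (limma adjusted p = 1, with the block 0.85), with a 95% interval of -0.33 to 0.56, or -0.24 to 0.47 with the block. The order of the 3 levels was therefore Sox17beta above the other two, and the Mixer and uninjected values overlapped. The 18 epidermal probe sets had a mean of 8.47 and 9.23 in uninjected caps. This mean was 7.51 and 8.40 in Mixer caps, and 7.14 and 6.64 in Sox17beta caps. The median difference of these probe sets from uninjected caps was -0.72 in Mixer caps and -1.89 in Sox17beta caps. In Sox17beta caps 0 of them passed in the limma fit without the block (14 at an unadjusted p under 0.05), and with it 15 fell and 0 rose. In Mixer caps 0 passed without the block (6 at an unadjusted p under 0.05) and with it 1 fell, dlx5.L. The 13 endoderm probe sets had means of 5.07 and 5.15, 6.97 and 7.61, and 6.71 and 6.94 in the same order, and these include both probe sets of the injected gene, sox17b.1.S. In Mixer caps 3 endoderm probe sets rose without the block and 8 with it. In Sox17beta caps 2 rose without it, both of sox17b.1.S (6.70 and 7.62), and 5 with it, these 2 among them, and the median difference of the 13 was 0.31. Of 10 neural plate probe sets 3 fell in Sox17beta caps with the block and 0 passed in Mixer caps (1 at an unadjusted p under 0.05). Over all probe sets 5.45% passed with the block in Sox17beta caps and 1.31% in Mixer caps. In bulk tissue, fewer cells of a type and less RNA per cell cannot be told apart, and the part of these shifts in the eomes.L result was not tested.

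vegt.L and vegt.S, the copies of the VegT gene, differed more between replicate numbers than between groups. Whether their RNA in the caps was stored from the egg or newly made was not tested. vegt.L read 7.25 and 6.0 in uninjected caps, 7.72 and 6.59 in Mixer caps, and 7.32 and 5.95 in Sox17beta caps. Its value on Sox17beta replicate 2 lay below the highest absent control of that array (6.09). On uninjected replicate 2 it lay just above that of its array (5.99), so the sizes of differences that use these values are uncertain. In each group the array numbered 1 was the higher, by 1.25, 1.13 and 1.37, so all groups overlapped. Averaged over groups, this replicate difference of 1.25 ranked 146 among the 15491 probe sets ordered from the highest, and 1.93% of probe sets had one at least as large in either direction. vegt.S read 7.14 and 6.02 in uninjected caps, 7.22 and 6.10 in Mixer caps, and 6.37 and 5.81 in Sox17beta caps. It too was higher on every array numbered 1, by 1.12, 1.12 and 0.56. The 7 probe sets of other vegetal and germ plasm RNAs, wnt11b.L among them, had means that were also higher on arrays numbered 1, at 5.76 against 5.35 (uninjected), 6.26 against 5.97 (Mixer) and 5.87 against 5.71 (Sox17beta). This was not particular to vegetal RNAs. The 10 neural plate probe sets had means of 7.42 against 6.96, 7.34 against 6.86 and 6.92 against 6.72 in the same order. The endoderm means were lower on arrays numbered 1 in every group, and the epidermal means were lower there in uninjected and Mixer caps alone. What separates the numbers is not given in the labels used here.

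**Figure D2:**
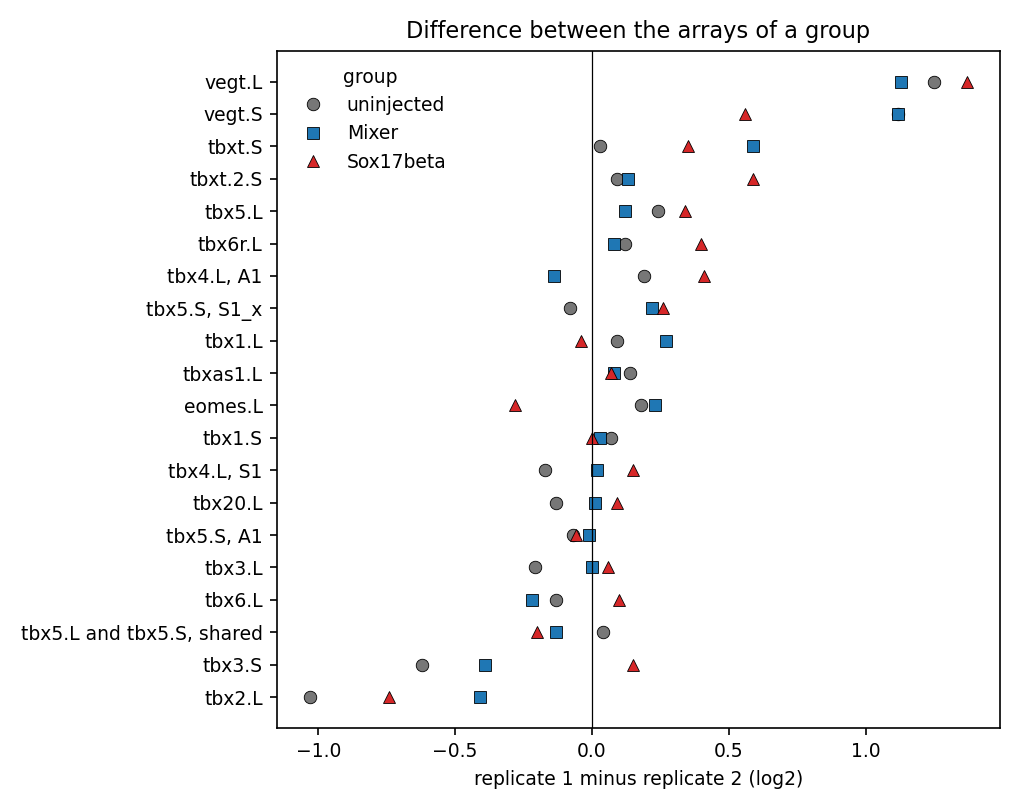
Difference of replicate 1 minus replicate 2 (log2, horizontal axis) for each of the 20 probe sets (vertical axis), with 1 symbol per group. The vegt.L values of 1.13 to 1.37 and the vegt.S values of 0.56 to 1.12 lie to the right (uninjected and Mixer coincide for vegt.S), the tbx2.L values of -1.03 to -0.41 lie to the left, and the eomes.L values lie within 0.28 of 0.

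Compared within replicate numbers, vegt.L was higher in Mixer caps than in uninjected caps by 0.47 (arrays numbered 1) and 0.59 (numbered 2). The mean difference of 0.53 did not pass (limma adjusted p = 1, with the block 0.0958). Its 95% interval was -1.25 to 2.31 without the block and 0.26 to 0.80 with it, before any adjustment for the number of probe sets. In Sox17beta caps vegt.L differed from uninjected caps by 0.07 and -0.05 in the numbered pairs, a mean of 0.01 (adjusted p = 1, with the block 0.974) with a blocked interval of -0.26 to 0.28. Between Mixer and Sox17beta caps it differed by 0.52 (adjusted p = 1, with the block 0.0922).

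The short-chromosome copy had other values. vegt.S in Mixer caps differed from uninjected caps by 0.08 in each numbered pair (limma adjusted p = 1, with the block 0.915). In Sox17beta caps it differed by -0.77 and -0.21 in the pairs, a mean of -0.49 (adjusted p = 1, with the block 0.169). Both vegt.S values in Sox17beta caps (6.37 and 5.81) lay below the highest absent control of their array (6.62 and 6.09). The size of this difference is therefore uncertain. Neither copy therefore passed in any comparison. Whether the copies differed from each other in their response was not tested, since each copy has its own probe set.

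Brachyury was read by tbxt.S and by tbxt.2.S, a further brachyury-type gene that, despite its ending, is annotated next to tbxt.L in RefSeq (assembly Xenopus_laevis_v10.1). tbxt.S read 4.78 and 4.75 in uninjected caps, 5.38 and 4.79 in Mixer caps, and 5.09 and 4.74 in Sox17beta caps. All 6 values lay below the highest absent control of their array, and above the median of these controls (3.73 to 4.06 over the arrays). The highest values were those of replicate 1 in Mixer and then in Sox17beta caps. The Mixer difference of 0.32 was 0.60 in the arrays numbered 1 and 0.04 in those numbered 2 (limma adjusted p = 1, with the block 0.475), and the Sox17beta difference was 0.15 (adjusted p = 1, with the block 0.653). The 95% intervals with the block ran from -0.04 to 0.68 in Mixer caps and from -0.21 to 0.51 in Sox17beta caps.

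tbxt.2.S read 4.48 and 4.39 in uninjected caps, 4.53 and 4.40 in Mixer caps, and 5.12 and 4.53 in Sox17beta caps. Its Sox17beta difference was 0.39 (limma adjusted p = 1, with the block 0.228), and came mostly from Sox17beta replicate 1. At least as large a difference was seen in 4 of the 44 absent controls. tbx6.L, a factor of paraxial mesoderm, read 4.64 to 4.90 over all 6 arrays, and its neighbour tbx6r.L read 6.10 to 6.50. Neither passed in any comparison with either fit.

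tbx2.L, a repressor, was the member above the absent controls on every array. It read 6.28 and 7.31 in uninjected caps, 6.96 and 7.37 in Mixer caps, and 7.1 and 7.84 in Sox17beta caps. Here the array numbered 2 was the higher in each group, by 1.03, 0.41 and 0.74, the opposite of vegt. Within numbers, Sox17beta caps exceeded uninjected caps by 0.82 and 0.53, a mean of 0.68 (limma adjusted p = 1, with the block 0.063). In Mixer caps the pairs differed by 0.68 and 0.06, a mean of 0.37 (adjusted p = 1, with the block 0.421). Between Mixer and Sox17beta caps the mean difference was -0.31 (adjusted p = 1, with the block 0.445).

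The related repressor tbx3 was read by both copies. tbx3.L stayed between 5.56 and 5.77 on all 6 arrays, with group means that spanned 0.04. tbx3.S read 5.50 and 6.12 in uninjected caps, 5.49 and 5.88 in Mixer caps, and 5.52 and 5.37 in Sox17beta caps. Its Sox17beta difference of -0.37 rested on the arrays numbered 2, at -0.75, where those numbered 1 differed by 0.02 (limma adjusted p = 1, with the block 0.357).

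Of the heart and limb factors, tbx5.L was the member besides eomes.L that passed. It read 4.82 and 4.58 in uninjected caps, 4.69 and 4.57 in Mixer caps, and 5.44 and 5.10 in Sox17beta caps. Both Sox17beta arrays lay above the other 4, and all 6 values lay below the highest absent control of their array, so the fold is uncertain. The rise of 0.57 ± 0.18 (SE) in Sox17beta caps had a limma adjusted p of 0.612 without the block and passed with it (0.0343). It was 0.62 and 0.52 in the numbered pairs, and 0 of the 44 absent controls differed as much. Against Mixer caps the difference was -0.64 (adjusted p = 0.897, with the block 0.0506). Quantile normalization with the block ended the blocked call of tbx5.L in Sox17beta caps (limma adjusted p = 0.0546). Each single-array omission ended it too, in fits with 1 array in a group. Most of these fits also lost the blocked call of eomes.L, but the fit without Sox17beta replicate 1 kept it. Over the omissions the difference of tbx5.L stayed between 0.40 and 0.74. The value of 0.40 (0.49 with the block) came without Sox17beta replicate 1, the array that stood apart in the absent controls.

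The other tbx5 probe sets did not pass. The probe set annotated to both copies read 3.78 and 3.74 in uninjected caps, 3.70 and 3.83 in Mixer caps, and 3.99 and 4.19 in Sox17beta caps, a Sox17beta difference of 0.33 (limma adjusted p = 0.871, with the block 0.189). Its difference between Mixer and Sox17beta caps was -0.33 (adjusted p = 1, with the block 0.27). The tbx5.S probe sets read 4.24 to 4.55 (ending A1_at) and 4.20 to 4.64 (ending S1_x_at) over the 6 arrays. In the same RefSeq annotation tbx3.S and tbx5.S are adjacent and 1 gene lies between tbx3.L and tbx5.L, and tbx4.L and tbx2.L are adjacent too. The probe sets of tbx4.L, a limb factor, read 2.65 to 3.14 and 4.26 to 4.50, and did not pass.

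Both copies of tbx1, a factor of the pharyngeal region, read slightly higher in Sox17beta caps without passing. tbx1.L read 3.78 and 3.69 in uninjected caps, 3.95 and 3.68 in Mixer caps, and 4.10 and 4.14 in Sox17beta caps, a Sox17beta difference of 0.39 (limma adjusted p = 0.799, with the block 0.148). tbx1.S read 5.02 and 4.95, 5.0 and 4.97, and 5.33 and 5.33 in the same order, a difference of 0.35 (adjusted p = 0.719, with the block 0.141). In each case 4 of the 44 absent controls differed at least as much. The heart factor tbx20.L read 5.54 and 5.67 in uninjected caps, 5.36 and 5.35 in Mixer caps, and 5.7 and 5.61 in Sox17beta caps, and its largest difference was -0.30 between Mixer and Sox17beta caps (adjusted p = 1, with the block 0.304). The enzyme gene tbxas1.L stayed between 6.45 and 6.62.

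Counted together, the members showed few calls. In Mixer caps 0 of 20 passed in the limma fit, where 0.0387% of all probe sets passed, and 0 with the block, where 1.31% did. At an unadjusted p under 0.05 the counts were 0 members without the block (2.87% of all probe sets) and 1 with it, vegt.L (12.2%). Mixer and uninjected values did not overlap for 5 members, 3 higher and 2 lower, where 22.1% of all probe sets did not overlap. In Sox17beta caps 0 of 20 passed without the block (0.0194% of all) and 2 with it (5.45%), eomes.L and tbx5.L, both higher (1.88% of all passed as higher). At an unadjusted p under 0.05 these counts were 3 (6.26% of all) and 8 (18.2%). Between Mixer and Sox17beta caps eomes.L passed in both fits, 1 of 20 where 0.0581% and 1.56% of all probe sets passed, and 0.0258% and 0.555% as lower in Mixer caps. The unadjusted counts there were 3 (3.97% of all) and 9 (14.0%). For 8 members the values did not overlap, all lower in Mixer caps, where 24.5% of all probe sets did not overlap and 15.3% were lower. The Mixer and the Sox17beta comparison share the uninjected arrays.

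**Figure D3:**
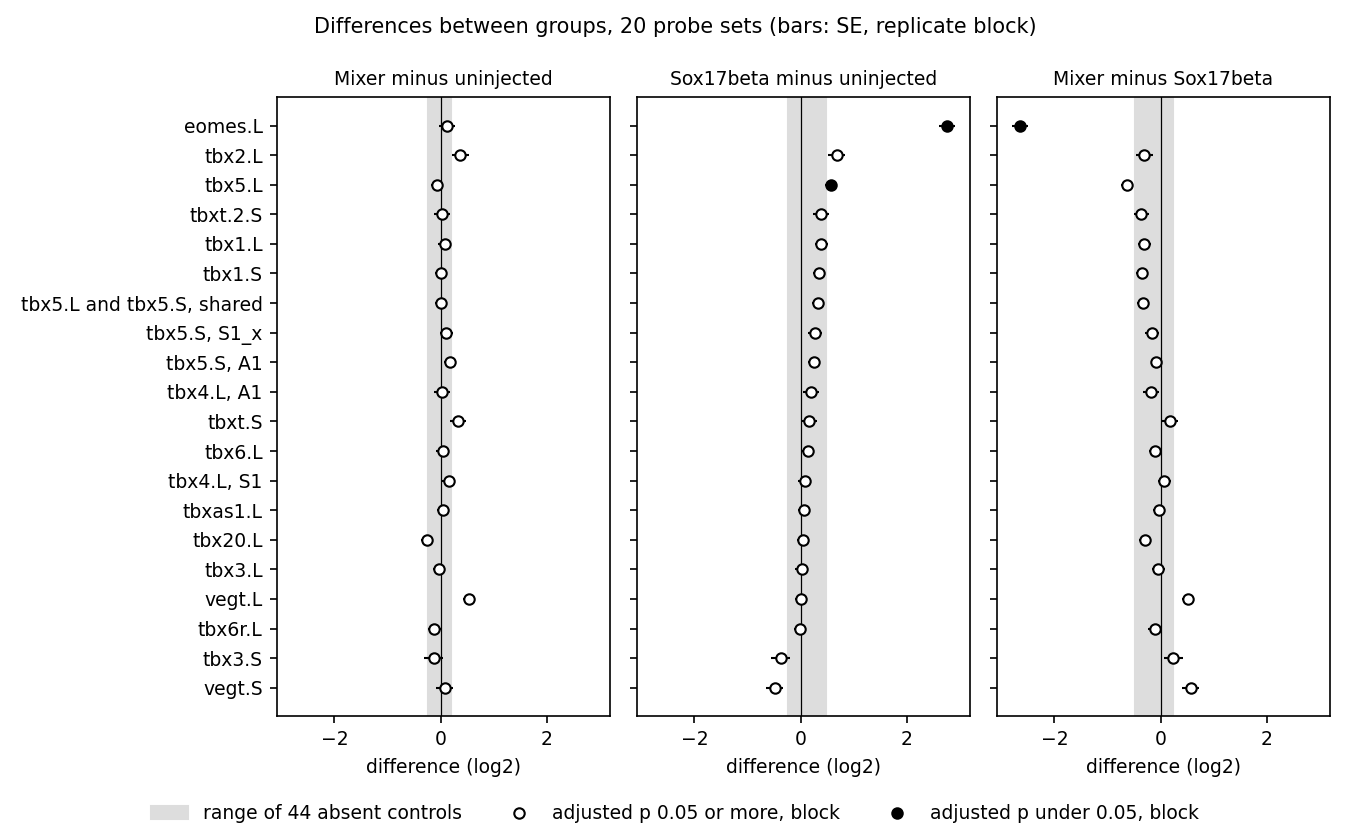
Differences between groups (log2, horizontal axes) of the 20 probe sets (vertical axis) in the 3 comparisons, with bars for the standard error with the replicate block, filled points for an adjusted p under 0.05 with the block and grey bands for the range of the 44 absent controls. eomes.L at 2.75 and tbx5.L at 0.57 are filled for Sox17beta minus uninjected, eomes.L at -2.64 is filled for Mixer minus Sox17beta, and no point is filled for Mixer minus uninjected.

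Small upward differences in Sox17beta caps were common among the dim members. Of the 20 members 17 had a higher mean in Sox17beta than in uninjected caps (85.0%, against 58.8% of all probe sets), with a median difference of 0.17 against 0.04 over all. The groups did not overlap for 9 members, all higher in Sox17beta caps, where 30.4% of all probe sets did not overlap and 20.0% were higher without overlap. Apart from eomes.L these 9 belonged to the 13 members below the highest absent control on every array. All 13 had a higher mean in Sox17beta caps, with a median of 0.25. The absent controls moved the same way: 36 of 44 were higher in Sox17beta caps, with a median of 0.16 that was 0.28 in the arrays numbered 1 and 0.03 in those numbered 2. The part of that shift in the differences of the dim members was not tested. In Mixer caps the members' median was 0.04 against 0.03 over all probe sets, and that of the absent controls was 0.01.

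Genes known to act downstream of VegT or Eomes in frog or other vertebrates were listed. With the block 11 of 33 probe sets passed in Mixer caps, where 1.31% of all did, and 9 of 33 in Sox17beta caps, where 5.45% did. The list gave 33 probe sets of 22 genes and includes the injected genes mixer and sox17b, and with the block 22 of the 33 did not pass in Mixer caps and 24 did not in Sox17beta caps. In Mixer caps 4 rose and 0 fell in the limma fit, and 11 rose and 0 fell with the block, with a median of 0.39 against 0.03 over all probe sets. Besides mixer and sox17b these were gata4, sox17a, foxa1.S, wnt11b.L and cer1.S. In Sox17beta caps 2 rose and 0 fell without the block, both of them probe sets of the injected sox17b.1.S, and 9 rose and 0 fell with it (median 0.29 against 0.04). Besides sox17b these were gata4.S (2.82), foxa1.S (2.43), gata5.L (0.87), foxa4.S, lhx1.L, gsc.S and a gsc.L probe set. Other probe sets of these genes did not pass in Sox17beta caps: gata5.S (-0.60), gata4.L (0.27), foxa4.L (0.39) and the other of gsc.L (0.28).

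Within that list, gsc.S, the organizer homeobox gene goosecoid, had group means in the same order as eomes.L, at 3.62 in uninjected, 3.80 in Mixer and 6.53 in Sox17beta caps. Its difference between Mixer and Sox17beta caps was -2.73 (limma adjusted p = 0.0566, with the block 0.000471). The means of foxa4.S, a forkhead gene of the midline, were 2.92, 2.94 and 4.49, and those of the LIM homeobox gene lhx1.L were 3.73, 3.78 and 5.11, and these differed by -1.55 and -1.33 between Mixer and Sox17beta caps (adjusted p = 0.145 and 0.523, with the block 0.00431 and 0.0186). All group means of foxa4.S and lhx1.L, and those of gsc.S in uninjected and Mixer caps, lay below the highest absent controls, so the sizes of these differences are uncertain. Other probe sets of the same genes did not pass between Mixer and Sox17beta caps: the gsc.L probe sets differed by -0.27 and -0.22 (0.419 and 0.574 with the block) and foxa4.L by 0.09 (0.826 with the block). In the opposite direction were gata4.L (3.32, adjusted p = 0.0173, with the block 0.000157), a zinc-finger endoderm factor, and sox17a.S (2.89, adjusted p = 0.04, with the block 0.000471). The other copy, gata4.S, was raised in both injected groups, with means of 4.13, 7.86 and 6.95. It differed by 0.91 between Mixer and Sox17beta caps (limma adjusted p with the block 0.0473).

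Genes known downstream of Brachyury gave 30 probe sets of 21 genes, of which 0 passed without the block in any of the 3 comparisons. At an unadjusted p under 0.05 the limma fit counted 5 in Mixer and 5 in Sox17beta caps. With the block 4 rose and 1 fell in Mixer caps: the genes that rose were wnt8a.L (1.12) and wnt11b.L (2.45), which encode Wnt ligands, the apelin receptor gene aplnr.L (2.74) and a probe set of hes7.1.L (0.77), a hairy-type repressor, and the Notch ligand gene dlc.L fell (-1.24). In Sox17beta caps 3 rose and 2 fell with the block: aplnr.L (1.98), fst.L (1.43) and wnt8a.L (0.69) rose, and both hes7.1.L probe sets fell (-1.13 and -0.81). Among the others, picked after their values were seen, msgn1.L differed by 0.03 and 0.06 in Mixer and Sox17beta caps, and fgf4.L by 0.09 and 0.22, without passing.

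Signals upstream of T-box genes gave 29 probe sets of 21 Nodal and FGF genes, and 0 passed without the block in either injected group (5 each at an unadjusted p under 0.05). With the block the FGF-responsive inhibitor spry2.S rose in Mixer caps (0.62, limma adjusted p = 0.0495). In Sox17beta caps 5 probe sets fell with the block, those of the FGF receptor genes fgfr1.L (-0.64), fgfr4.L (-1.46 and -1.07) and fgfr4.S (-1.16), and that of tdgf1.3.L (-1.03), a Nodal co-receptor of the EGF-CFC family. The Nodal ligand genes nodal1.L, nodal2.L and nodal6.L, picked after their values were seen, differed by 0.09, 0.40 and 0.31 in Sox17beta caps and did not pass (0.726, 0.134 and 0.26 with the block). The list of corepressors and partners gave 15 probe sets of 9 genes, of which 0 passed without the block (2 in Mixer and 3 in Sox17beta caps at an unadjusted p under 0.05). With it 1 rose in Mixer caps, an otx2.L probe set (2.07), and 4 in Sox17beta caps, those of the anterior homeobox gene otx2 (3.14 and 2.46 for otx2.L, 2.33 for otx2.S) and the histone deacetylase gene hdac2.S (1.17). For these lists and that of Brachyury, the shares over all probe sets with the block were 1.31% in Mixer caps and 5.45% in Sox17beta caps. The lists were chosen with earlier results of these data known, so their counts are descriptions.

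The probe sets nearest to eomes.L in pattern were sought among 397 with 1 symbol whose group means spanned at least 1. Pearson's r was taken over the 6 arrays after the mean of each replicate number was subtracted, so the values share arrays and leave fewer than 6 free points. The 5 nearest were irx4.L, an Iroquois homeobox gene (r = 0.9998), fst.L, whose product follistatin binds activin and BMP (0.9976), foxd2.S, a forkhead gene, kcp.L, a secreted BMP-binding protein, and zic5.S, a zinc-finger gene of neural tissue. Their means rose in Sox17beta caps by 3.86 (irx4.L), 1.43 (fst.L), 1.71 (foxd2.S), 1.17 (kcp.L) and 0.97 (zic5.S), all passing with the block, and differed by 0.17 or less in size in Mixer caps. Without the block these calls were lost, with limma adjusted p-values from 0.0506 (irx4.L) to 0.435 (kcp.L). In uninjected and Mixer caps the means of irx4.L, fst.L, foxd2.S and zic5.S lay below the highest absent controls. The sizes of their rises are therefore uncertain. All 5 probe sets were picked for their likeness to eomes.L, so it is no separate result.

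**Figure D4:**
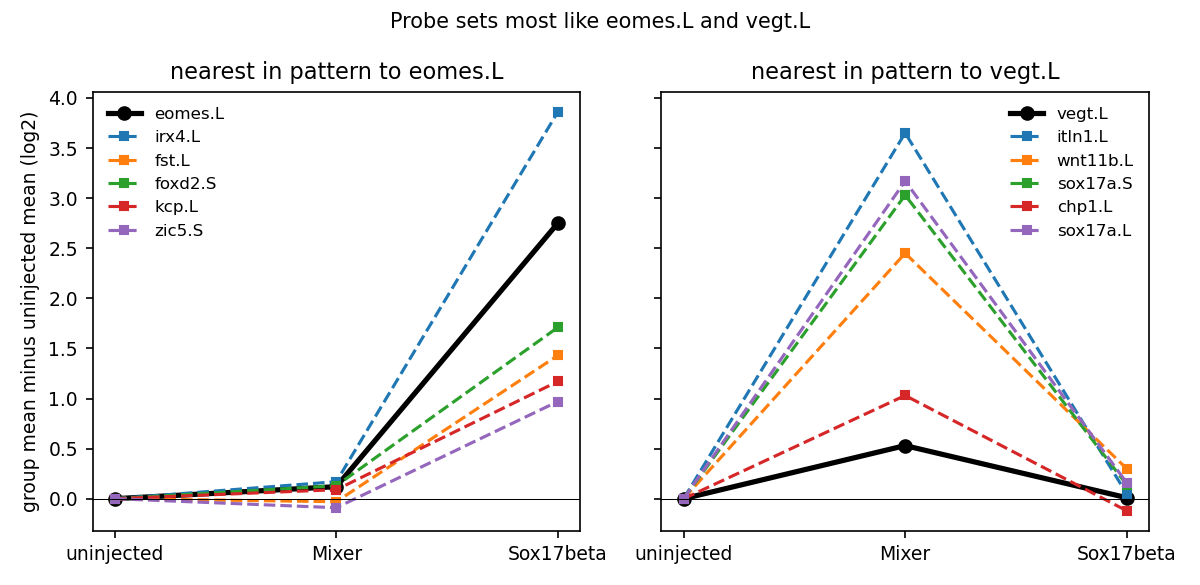
Group means minus the uninjected mean (log2, vertical axis) over the 3 groups (horizontal axis) for eomes.L and vegt.L (thick lines) and for the 5 probe sets nearest to each in pattern (dashed). The eomes.L panel is raised in Sox17beta caps alone, by 2.75 for eomes.L and up to 3.86 for irx4.L, and in the vegt.L panel the lines peak in Mixer caps, at 0.53 for vegt.L and up to 3.65 for itln1.L.

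The 5 nearest to vegt.L, among 398 candidates, were itln1.L, a secreted lectin (r = 0.9994), wnt11b.L, sox17a.S, chp1.L and sox17a.L. These had Mixer differences of 3.65 (itln1.L), 2.45 (wnt11b.L), 3.03 (sox17a.S), 1.03 (chp1.L) and 3.17 (sox17a.L), each passing with the block, where vegt.L itself differed by 0.53 and did not pass. Without the block only sox17a.S passed of these 5 (limma adjusted p = 0.0405), and the others had 0.427 (itln1.L), 0.483 (sox17a.L), 0.769 (wnt11b.L) and 1 (chp1.L). The uninjected means of itln1.L (5.76), sox17a.S (4.31) and sox17a.L (4.13) lay below the highest absent controls. The sizes of their Mixer differences are therefore uncertain. The likeness is one of shape, since the correlation takes no account of size, and it was computed after the replicate difference of vegt.L had been removed.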

How the data were processed

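The deposited table held log2 expression values of 15611 probe sets on 6 Affymetrix-type arrays, made with RMA by the authors per the submitters' processing notes. Its version is not given in the sources used here. No column of another series was used (0 such columns). The values were used as deposited, and 120 control probe sets were left out, which left 15491. Symbols came from the platform annotation, updated by gene identifier through RefSeq (Xenopus_laevis_v10.1), in which all 17 genes matched. Group means were compared with limma 3.58.1 (lmFit and eBayes, R 4.3.3) in 1 fit of all arrays, two-sided, with Benjamini-Hochberg adjustment over all probe sets within each of 3 comparisons and a threshold of 0.05. The labels number the arrays of each group 1 and 2. Deviations from the group means correlated at 0.867, 0.732 and 0.776 between same-numbered arrays, so the numbers were taken to pair the arrays and the fit with the number as a block is given beside each result. The fits were also run on simulated data, from which no result is given here. The number of arrays limits the precision. Members and gene lists were chosen with earlier results of these data known. Named genes are all members, list genes that passed with the block, up to 2 others a list by smallest p, and the 5 probe sets nearest in pattern to eomes.L and to vegt.L. Names outside this rule are marked in the text. Alternatives were the block, omission of each array, quantile normalization, median centring, a filter at the 25th percentile, a trended prior and fits of 2 groups. Figures used matplotlib 3.10.9 (Python 3.11.15).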

Additional observations from a re-analysis of the deposited data

How the results depend on the processing

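The count of T-box probe sets called in Mixer against uninjected caps was 0 under every alternative run. In Sox17beta against uninjected caps the count of 0 became 2 with the replicate block and 1 with quantile normalization (without or with the block). It became 2 with median centring and the block, and 1 with the filter on dim probe sets and the block. That filter removed tbx5.L, with a mean of 4.87 over the arrays, before testing. The count became 1 with a trended prior and 2 with that prior and the block. Single-array omissions leave 1 array in a group and lost calls over all probe sets too, so their counts are not read for the members. Between Mixer and Sox17beta caps the count of 1 became 2 with median centring and the block and with the trended prior and the block. It became 0 with 2 groups in the fit. The combinations of the block with quantile normalization and with median centring were chosen after seeing the data. Over all probe sets the block moved the calls from 6 to 203 (Mixer), from 3 to 844 (Sox17beta) and from 9 to 241 (Mixer against Sox17beta).

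The difference of eomes.L in Sox17beta caps kept its direction throughout. The signs that turned were those of differences that did not pass. Median centring, without or with the block, gave -0.01 for vegt.L in Sox17beta caps. Leaving out single arrays gave ranges that crossed 0, for vegt.L from -0.68 to 0.70 and vegt.S from -1.05 to 0.07 in Sox17beta caps, and in Mixer caps for eomes.L from -0.03 to 0.26, tbx2.L from -0.15 to 0.89, vegt.L from -0.10 to 1.16 and vegt.S from -0.48 to 0.64. Between Mixer and Sox17beta caps they were -0.68 to 0.07 for tbx2.L and -0.17 to 1.21 for vegt.L. With the block, omissions gave -0.06 for vegt.S in Mixer caps (without uninjected replicate 2 or Mixer replicate 1) and -0.08 for vegt.L in Sox17beta caps (without Sox17beta replicate 1). Without the block an omission leaves unequal replicate numbers in the groups compared. Apart from the tbx5.L and eomes.L calls, the block changed no call of a member. Signals below the highest absent control limit what can be read for 13 of the 20 members. No slide or scan batch could be tested.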
